A study of Bos taurus with 36 samples.

Results

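The comparison concerns 17 of the 36 libraries of the series, the 9 labelled as fetal gonads and the 8 of fetal liver, chosen by their labels alone and described over every gene of the deposited count table in both directions. All came from male bovine fetuses on Day 42 of gestation that had grown from Day 7 embryos. The embryos had been placed in heifers on Day 7 of the cycle (ET_D7) or on Day 9 (ET_D9), after synchronisation of those cycles, and no genotype is given. The fetuses are numbered by weight from 1, the lightest, to 10, the heaviest, so that fetuses 1 to 5 are those of ET_D7 and fetuses 6 to 10 those of ET_D9. Fetal weight and transfer group therefore cannot be told apart. Gonads were read in 4 fetuses of ET_D7 and 5 of ET_D9, and liver in 5 and 3. By its label each library comes from a dissected organ of 1 fetus. In such bulk samples fewer cells of a type and less RNA per cell cannot be told apart.

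At this age the fetal liver holds hepatoblasts, which start to secrete plasma proteins, and is also the organ in which red blood cells form. The gonads, the mesonephros and the metanephros develop beside each other from the urogenital ridge. The mesonephros is a transient kidney that lies along the gonad, and in the metanephros nephron progenitors condense around the branching ureteric bud. Supporting cells of a male gonad are known by SOX9 and AMH, steroid-making cells by CYP11A1 and HSD3B1, and germ cells by DDX4 and DAZL.

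The total count was 22762065 to 39649051 per gonad library and 18231089 to 34454772 per liver library. Transcripts of the mitochondrial genome took 3.31% to 7.22% of the counts in the gonad libraries and 16.3% to 36.8% in the liver libraries. Of the 35092 genes in the table, 24729 had a count in at least 1 of these 17 libraries and 13488 in every one. The gonad libraries of fetuses 6 and 8 agreed up to a constant factor more closely than sampling noise allows. Of their genes, 89.7% lay within 1% of that factor, against at most 8.42% in the other gonad pairs. The liver libraries of fetuses 1 and 2 also agreed more closely than that noise. For them 21.9% of genes lay within 1%, against at most 3.24% in the other liver pairs. Each of these pairs was averaged and counted as 1 sample, which left 8 gonad and 7 liver samples. The liver samples varied more among themselves. A count of at most 2 in some liver libraries together with 300 or more in each remaining one occurred in 333 genes, and the same kind of jump was seen for 1 gene in the gonad libraries. Within a liver library the low value was often a single number. It was 1 for all 284 such genes low in fetus 1 and 0 for the 284 low in fetus 2, 0 for the 323 low in fetus 9, and 1 for 297 of 325 in fetus 8. Whether the liver counts were adjusted before deposit cannot be judged from these values. Levels are given below in CPM, the counts of a gene per 1000000 counts of the library total as adjusted by the TMM method, and differences as log2 of the gonad level over the liver level with the standard error (SE) of the edgeR fit. Heart levels come from a separate TMM scaling over gonad, liver and heart samples together, so they compare with the other levels only roughly. A gene was called when its Benjamini-Hochberg adjusted p in edgeR's quasi-likelihood test was under 0.05.

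Genes were tested when they had at least 10 counts in at least 8 of the 17 libraries. A gene high in the gonad or the liver libraries alone could pass. Members of the lists below could thus be counted through the organ in which they were high. Among 17679 genes tested, 6528 were higher in the gonad-labelled libraries (36.9%) and 6338 were higher in the liver (35.9%). With a difference of at least 2-fold also required, 4757 genes were higher in the gonad libraries (26.9%) and 4861 in the liver (27.5%). Every gonad sample lay above every liver sample for 4116 genes (23.3%), and every liver sample above every gonad sample for 3826 genes (21.6%). These shares are the background for the counts of list members given below. The median log2 difference of all genes tested was 0.04. The balance between the directions depended on the scaling. With CPM of the plain library totals that median moved to 1.10, and 76.2% of the called genes were higher in the gonad libraries, against 50.7% with TMM. With TMM, differences of larger size were more often on the liver side. There, 1816 genes were at least 8-fold higher and 77 at least 1024-fold higher, against 983 and 12 genes in the gonad libraries. These sizes were not counted with other scalings. A limit of 3 counts over a group was 0.00812 CPM in the gonads and 0.0247 CPM in the liver. Very large ratios could thus be reached more easily on the liver side. Of the genes tested, 4813 were not called, and for 1249 the 95% confidence interval of the difference stayed within 1.5-fold in either direction.

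The 5 marker genes given for the 2 kinds of library separated them without overlap. L1CAM, a cell adhesion molecule, ranged from 57.6 to 105 CPM in the gonad samples (median 70.8) and from 0 to 1.56 CPM in the liver samples (median 0.288), a log2 difference of 6.95 (SE 0.539, edgeR adjusted p = 5.97e-09). WT1, a transcription factor of the urogenital ridge and of podocytes, ranged from 101 to 188 CPM (median 149) against 0 to 8.28 CPM (median 0.722), a log2 difference of 6.06 (SE 0.695, edgeR adjusted p = 6.98e-07) that was 6.71 without liver fetus 4. Both were high in all 8 gonad samples. AFP, the albumin-like protein of fetal plasma, ranged from 0.28 to 4.55 CPM (median 1.42) in the gonad samples and from 8750 to 15300 CPM (median 12475) in the liver samples, a log2 difference of -12.71 (SE 0.732, edgeR adjusted p = 1.41e-10). ITIH3, a plasma protein that binds hyaluronan, ranged from 0.231 to 0.883 CPM (median 0.574) against 2099 to 4522 CPM (median 2650), a log2 difference of -12.45 (SE 0.401, edgeR adjusted p = 1.34e-13).

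Among named genes that were called without overlap, averaged at least 10 CPM in the higher organ and made no jump in the liver, the 10 with the largest differences on the gonad side included 5 HOX genes, which mark position along the body axis: HOXD10, HOXC10, HOXA11, HOXC9 and HOXD11. The others were SIM1, IRS4, CALB1, FOXD1 and PENK. HOXD10 ranged from 108 to 182 CPM (median 127) in the gonad samples and had 0 counts in every liver library. Against the limit of 3 counts over the liver group (0.0247 CPM), with counts taken as independent, it was at least 5366-fold higher (edgeR adjusted p = 1.07e-11). By the same limit HOXC10 was at least 2395-fold higher, HOXA11 at least 1680-fold, and SIM1, a transcription factor gene, at least 785-fold. HOXC9 had 35224 counts over the gonad samples and 1 over the liver samples, in the averaged sample of fetuses 1 and 2, a ratio of 11576 whose 95% counting interval runs from 2078 to 457244. Its log2 difference was 12.98, and 14.68 without that liver sample.

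IRS4, an adaptor protein of insulin and growth factor receptors, ranged from 43.3 to 86.3 CPM (median 68.9) against 0 to 0.288 CPM (median 0), a log2 difference of 10.27 (SE 0.505, edgeR adjusted p = 1.98e-11). FOXD1, a transcription factor of the kidney stroma, ranged from 51.5 to 104 CPM (median 67.5) against 0 to 0.347 CPM (median 0), a log2 difference of 9.21 (SE 0.511, edgeR adjusted p = 8.66e-11). For these genes the liver samples were at or near 0 and no gonad sample was. CALB1, a calcium-binding protein of the distal tubule and ureteric tree, ranged from 24.2 to 59.6 CPM (median 40.4) against 0 to 0.284 CPM, and PENK, the precursor of enkephalin peptides, from 20.1 to 36.3 CPM (median 29.9) against 0 to 0.447 CPM. Because the liver values were so low, 1 liver sample could set the size of a difference: IRS4 was at 11.53 without liver fetus 10, FOXD1 at 10.05 without liver fetus 8, and PENK at 12.91 without liver fetus 3, against 8.99 with it.

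**Figure D1:**
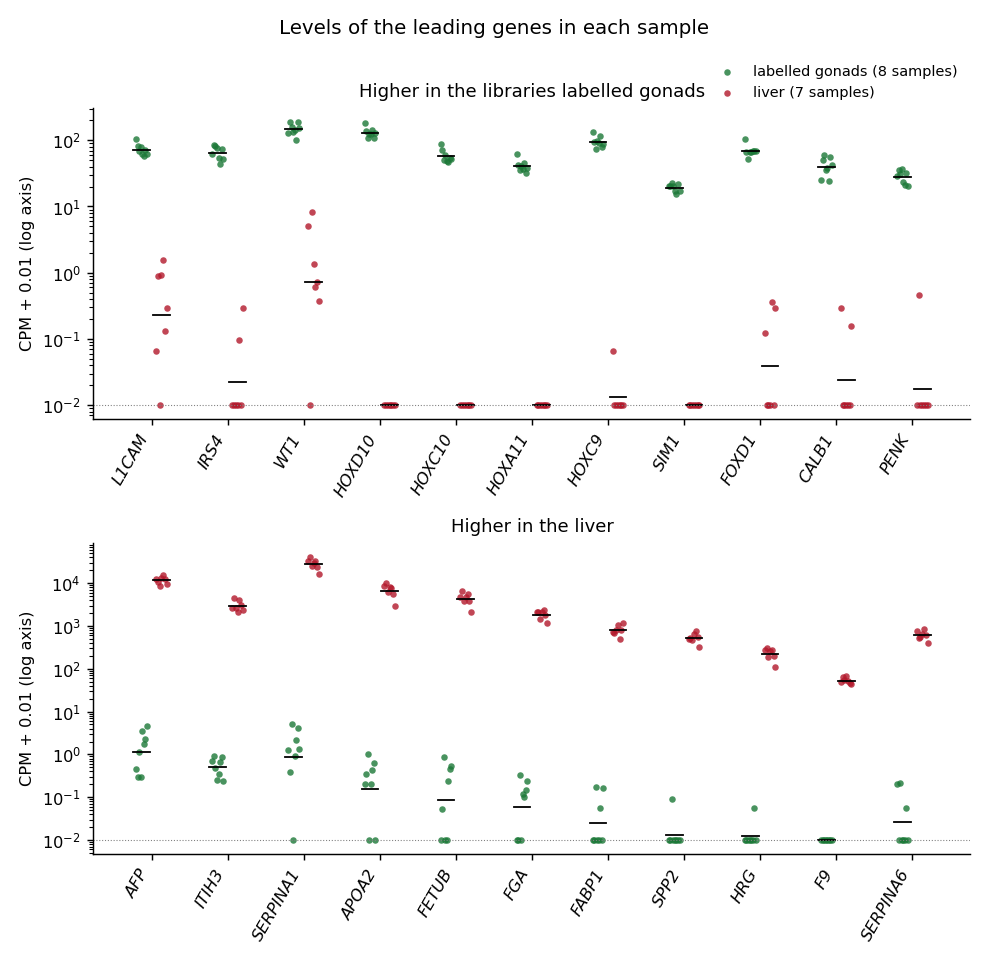
Levels of the 5 marker genes and of 9 of the 10 genes chosen for a large difference in each direction (all but HOXD11 and FGG), in CPM + 0.01 on a log axis. Each point is 1 sample (8 labelled gonads, 7 liver) and each black line the geometric mean of the value plus 0.01. Lack of overlap between the groups was a condition for choosing the latter genes, and the 5 marker genes also showed none. HOXD10, HOXC10, HOXA11, SIM1 and F9 lie at 0 in every sample of the lower group.

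Chosen in the same way, the 10 genes with the largest differences on the liver side were SPP2, HRG, APOA2, FETUB, FGA, FABP1, SERPINA1, F9, FGG and SERPINA6. With the exception of FABP1, a fatty acid-binding protein of the cytoplasm, these encode proteins that hepatocytes secrete into plasma. SERPINA1, the inhibitor of neutrophil elastase, ranged from 16535 to 40984 CPM in the liver samples (median 30472) and from 0 to 5.15 CPM in the gonad samples (median 1.31), a log2 difference of -13.89 (SE 0.916, edgeR adjusted p = 7.79e-10). APOA2, an apolipoprotein of high density lipoprotein, ranged from 2963 to 10157 CPM (median 7913) against 0 to 1.01 CPM (median 0.271), a log2 difference of -14.30 (SE 0.78, edgeR adjusted p = 7.13e-11). FETUB, a protease inhibitor of the cystatin superfamily, ranged from 2073 to 6573 CPM (median 4727) against 0 to 0.844 CPM (median 0.136), a log2 difference of -14.00 (SE 0.828, edgeR adjusted p = 1.96e-10).

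F9, a clotting factor, had 0 counts in all gonad libraries and 44.4 to 66.2 CPM in the liver samples (median 51), which made it at least 6597-fold higher in the liver against the limit of 3 counts over the gonad group (0.00812 CPM). SERPINA7, which carries thyroid hormone, was likewise at 0 in the gonads and at least 2341-fold higher in the liver. HRG, a histidine-rich plasma glycoprotein, had 29106 counts over the liver samples and 2 over the gonad samples, both in fetus 9, a ratio of 44282 with a 95% counting interval of 12257 to 365670. Its log2 difference was -14.61, and -15.85 without gonad fetus 9. SPP2, a secreted phosphoprotein, ranged from 320 to 778 CPM (median 518) in the liver and reached at most 0.0804 CPM in a gonad sample, that of fetus 4. Its log2 difference of -15.18 (SE 0.461, edgeR adjusted p = 8.24e-14) was -17.06 without that sample. FGG, the gamma chain of fibrinogen, was highest at 0.241 CPM among the gonad samples, and its log2 difference was -13.55, or -15.57 without gonad fetus 4.

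The label of the gonad libraries was set against lists of marker genes. Genes of nephron progenitors were higher in the gonad libraries for 12 of 15 members tested, 3 were higher in the liver, and the median log2 difference was 4.91, beside 0.04 over all genes. The summed level of this list was 729 to 990 CPM in the gonad samples and 99.8 to 143 CPM in the liver samples, beside 74.5 to 125 CPM in the 9 heart samples of the same study. PAX2, which the nephric lineage needs from its first steps, ranged from 118 to 157 CPM (median 130) in the gonad samples and from 0 to 1.2 CPM (median 0.114) in the liver samples, a log2 difference of 8.67 (SE 0.606, edgeR adjusted p = 1.61e-09) that was 9.60 without liver fetus 9. SIX2, which keeps nephron progenitors undifferentiated, ranged from 32.3 to 74.3 CPM (median 42.4) against 0 to 0.781 CPM (median 0.576), a log2 difference of 6.95 (SE 0.658, edgeR adjusted p = 6.95e-08). EYA1, a cofactor of SIX2 and related proteins, ranged from 95.8 to 195 CPM (median 137) against 0 to 3.9 CPM (median 1.04), a log2 difference of 6.76 (SE 0.691, edgeR adjusted p = 1.77e-07). In each of these genes the groups stood apart. SALL1, a zinc finger protein of the metanephric mesenchyme, was higher by 4.91 (SE 0.215), and MEOX1, a homeobox gene, by 6.51 (SE 0.668). GDNF, the ligand that draws out the ureteric bud, ranged from 17.5 to 24.9 CPM against 0 to 5.25 CPM, and its log2 difference of 3.81 was 4.71 without liver fetus 8. The 3 members higher in the liver were CITED1 (log2 difference -4.72, SE 0.228), CRYM and TMEM100.

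For the ureteric bud and nephric duct, 10 of 13 members were higher in the gonad libraries and 1 was higher in the liver, with a median of 3.50. The list summed to 324 to 495 CPM in the gonads, 157 to 377 CPM in the liver and 87.9 to 120 CPM in the heart. RET, the receptor for GDNF, ranged from 35 to 47.4 CPM (median 40.3) in the gonad samples and from 0 to 0.954 CPM (median 0.149) in the liver samples, a log2 difference of 6.92 (SE 0.601, edgeR adjusted p = 2.4e-08) that was 7.57 without liver fetus 8. ETV4, a transcription factor downstream of RET, was higher by 5.11 (SE 0.434), and GATA3 by 3.50 (SE 0.325). WNT9B, the duct signal that induces nephrons, ranged from 8.44 to 13.9 CPM against 0 to 1.38 CPM, and WNT4, which carries out that induction in the mesenchyme, from 21.6 to 37.1 CPM against 0 to 1.3 CPM. Neither gene had a liver sample within the range of the gonad samples. The member higher in the liver was CDH16, a cadherin first described in the kidney, which ranged from 107 to 321 CPM there (median 179) and from 3.04 to 6.54 CPM in the gonads (median 4.24), a log2 difference of -5.29 (SE 0.255, edgeR adjusted p = 1.6e-11).

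Genes of differentiated kidney cells were mixed. Of 10 podocyte genes, 6 were higher in the gonad libraries and 3 in the liver, with a median of 1.67. Podocyte genes summed to 331 to 437 CPM in the gonads, 141 to 188 CPM in the liver and 407 to 560 CPM in the heart. NPHS1, the slit diaphragm protein nephrin, ranged from 3.47 to 16.2 CPM (median 10) against at most 0.26 CPM in the liver, in fetus 8, and its log2 difference of 7.58 (SE 0.818, edgeR adjusted p = 3.38e-07) was 11.32 without that sample. TCF21, a transcription factor of podocytes, stroma and coelomic epithelium, ranged from 88.8 to 191 CPM (median 95.8) against 0 to 5.57 CPM (median 2.67). In the heart samples TCF21 was at 37.7 to 77.6 CPM. Of 15 tubule genes tested, 6 were higher in the gonad libraries and 5 in the liver, with a median of 0.02. Of all genes tested, 36.9% and 35.9% were. Tubule genes summed to 136 to 222 CPM in the gonads, 136 to 246 CPM in the liver and 163 to 220 CPM in the heart. SLC12A1, the salt transporter of the thick ascending limb, ranged from 14 to 71.9 CPM (median 32.6) against 0 to 2.67 CPM (median 0.454), a log2 difference of 5.83 (SE 0.852, edgeR adjusted p = 1.13e-05) that was 6.80 without liver fetus 4. AQP2, the water channel of the collecting duct, was at 0 in the liver and at least 37.3-fold higher. LRP2, the endocytic receptor megalin, was higher in the liver, at 47 to 63.1 CPM against 5.1 to 14.3 CPM (log2 difference -2.48, SE 0.216, edgeR adjusted p = 2.5e-08).

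Defining genes of gonadal cells were low in the libraries labelled gonads. GATA4, needed for the genital ridge to form, ranged from 0 to 0.138 CPM there (median 0.054) and from 49.8 to 99.5 CPM in the liver (median 66.5), a log2 difference of -10.12 (SE 0.428, edgeR adjusted p = 3.1e-12), with a mean of 297 CPM in the heart samples. NR5A1, the regulator of steroid-making cells and of the early gonad, ranged from 0.335 to 1.27 CPM (median 0.776) against 4.36 to 12.4 CPM in the liver (median 11.1), a log2 difference of -3.66 (SE 0.337, edgeR adjusted p = 4.87e-08). LHX9, another genital ridge factor, ranged from 0.121 to 0.27 CPM against 2.09 to 11 CPM, a log2 difference of -4.72 (SE 0.361, edgeR adjusted p = 5.04e-09). All 3 were higher in every liver sample than in any gonad sample. Of the 10 gonadal ridge genes, 4 were higher in the gonad libraries (WT1, EMX2, TCF21 and CBX2) and 5 in the liver. The first 3 of those 4 are also members of the kidney lists.

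Leydig cell genes at 1 CPM or less on average made up 7 of 8 in the gonad libraries. The summed level was 9.52 to 19.7 CPM there, against 91.5 to 166 CPM in the liver and 10.2 to 25.5 CPM in the heart. CYP11A1, which carries out the first step of steroid synthesis, ranged from 0.388 to 1.15 CPM (median 0.643) against 18.9 to 27.7 CPM (median 21.6), and HSD3B1, which acts on its product, from 0.458 to 1.08 CPM (median 0.844) against 55.3 to 122 CPM (median 71.6). Both were higher in the liver without overlap (log2 differences -4.95, SE 0.256, and -6.58, SE 0.275). STAR, the cholesterol carrier of mitochondria, was at 6.16 to 14.7 CPM and 3.63 to 8.72 CPM and was not called (edgeR adjusted p = 0.452), though plain library totals put it higher in the gonads (1.25). INSL3, a Leydig cell hormone, reached at most 0.184 CPM in a gonad sample.

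Of 12 Sertoli cell genes tested, 4 were higher in the gonad libraries, 2 were higher in the liver and 6 were not called, beside 36.9% and 35.9% of all genes tested that were higher in the gonad libraries and in the liver. SOX9, the male determining factor downstream of SRY, ranged from 0.448 to 7.01 CPM (median 3.55) against 0 to 2 CPM (median 0.381) with overlap, a log2 difference of 2.18 (SE 0.794, edgeR adjusted p = 0.0209), and lost its call with fetus as a block (2.83, edgeR adjusted p = 0.0811). SOX8 ranged from 5.04 to 9.86 CPM against at most 0.521 CPM, and CLDN11, a tight junction protein, from 8.29 to 15.3 CPM against at most 1.82 CPM, both without overlap. Without liver fetus 8 their log2 differences of 5.53 and 5.09 were 6.31 and 8.27. AMH, the hormone that removes the female ducts, was at 1.11 to 2.62 CPM and 0.288 to 3.81 CPM and was not called (log2 difference 0.33, SE 0.446, edgeR adjusted p = 0.512), while plain library totals put it higher in the gonads (1.47). The heart samples had AMH at 2.36 to 6.38 CPM and SOX9 at 1.39 to 6.63 CPM. FSHR was higher in the liver (log2 difference -2.72, edgeR adjusted p = 0.00164), though not with fetus as a block (edgeR adjusted p = 0.07). DMRT1, another male factor, reached at most 0.315 CPM in a gonad sample.

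Germ cell genes were near 0. DDX4 reached at most 0.292 CPM and DAZL at most 0.0804 CPM in the gonad samples, and 9 of the 11 genes of the list averaged 1 CPM or less there. NANOS3, an RNA-binding protein of germ cells, was called higher in the liver by 1 sample alone. It was at 77.6 CPM in liver fetus 3 and at most 0.072 CPM in the other livers, beside 0.0771 to 1.42 CPM in the gonads. This is the kind of jump described above for the liver counts. Without liver fetus 3 the log2 difference of -4.19 was 4.71. What tissue the samples labelled gonads contained was not tested beyond these levels.

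**Figure D2:**
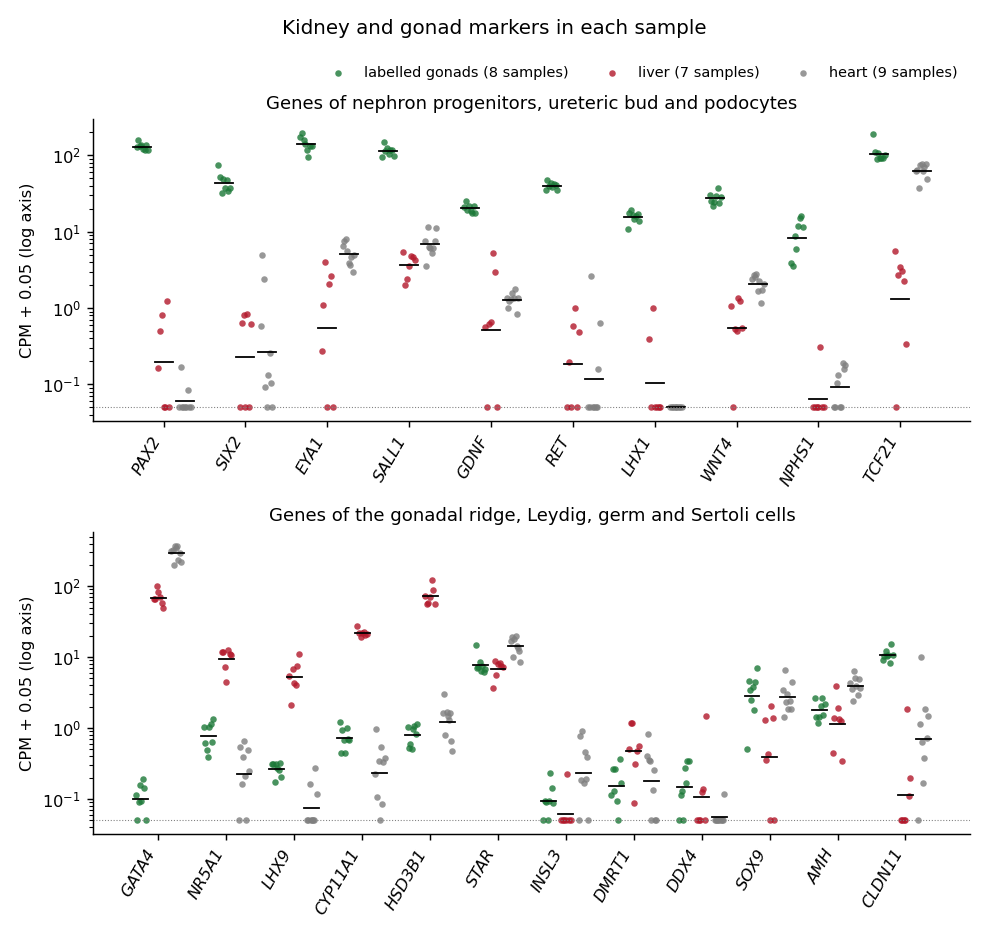
Levels of kidney and gonadal marker genes in the 8 samples labelled gonads, 7 liver samples and 9 heart samples, in CPM + 0.05 on a log axis, with 1 point per sample and a black line at the geometric mean of the value plus 0.05. PAX2, SIX2, RET and the other kidney genes lie high in the gonad-labelled samples, whereas GATA4, NR5A1, CYP11A1 and HSD3B1 lie lower there than in the liver. Heart levels were scaled separately from those of the gonads and liver.

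Of 39 HOX genes listed, 29 passed the filter on low counts. Of these, 28 were higher in the gonad libraries, 27 of them without overlap, beside 36.9% and 23.3% of all genes tested. The median log2 difference of the HOX genes was 5.96. The filter asked for 10 counts in 8 of 17 libraries, which a gene high in the gonads alone could pass. The summed level was 2168 to 3354 CPM in the gonad samples and 41.6 to 117 CPM in the liver samples, beside 6 to 126 CPM in the heart samples. HOX genes are ordered along 4 clusters by the body level at which they act, with high numbers toward the tail. HOXB6 ranged from 529 to 857 CPM (median 692) against 0 to 3.75 CPM (median 1.65), a log2 difference of 8.65 (SE 0.699, edgeR adjusted p = 9.86e-09). HOXD3 ranged from 258 to 482 CPM (median 296) against 0 to 31.2 CPM (median 0.072), and HOXA9 from 183 to 267 CPM (median 227) against 2.88 to 7.34 CPM (median 5.54). HOXD11, needed with HOXA11 for the metanephros, ranged from 14.5 to 28.2 CPM (median 20.2) against at most 0.114 CPM. None of the 6 listed genes of paralogues 12 and 13 (HOXA13, HOXB13, HOXC12, HOXC13, HOXD12 and HOXD13) passed the filter, nor did HOXA4, HOXA5, HOXB1 and HOXC11.

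HOXA6 was not called, at 2.77 to 7.34 CPM (median 4.23) in the gonad samples and 0 to 18.1 CPM (median 3.14) in the liver samples (log2 difference -0.35, SE 0.854, edgeR adjusted p = 0.72, or 0.24 without liver fetus 10). HOXC6 was set by 1 liver sample. It ranged from 107 to 169 CPM in the gonads, and in the liver it was at 71.6 CPM in fetus 5 and at most 0.072 CPM in the others. Its log2 difference was 3.59 (SE 1.3, edgeR adjusted p = 0.0207) with that sample and 12.30 without it. The liver counts of HOXC6 were 1888 in fetus 5 and at most 1 in the other samples, which is a jump of the kind described above. HOXD3 was at 5.11 over all samples and 5.86 without the averaged liver sample of fetuses 1 and 2. MEIS1, a cofactor that binds DNA with HOX proteins, ranged from 256 to 487 CPM (median 347) against 13.1 to 25.7 CPM (median 15.2), a log2 difference of 4.40 (SE 0.186, edgeR adjusted p = 3.1e-12).

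**Figure D3:**
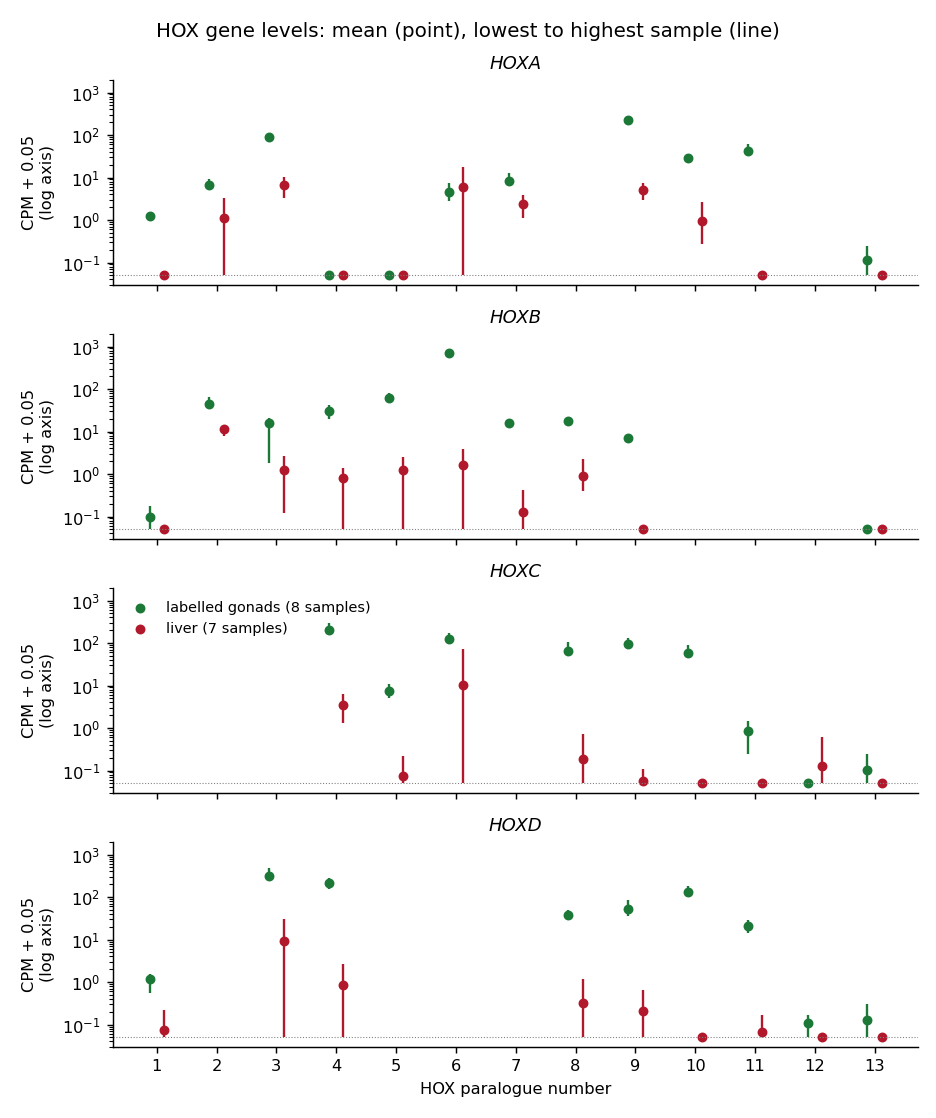
Levels of the HOX genes by cluster and paralogue number, in CPM + 0.05 on a log axis. Points are means over 8 samples labelled gonads and 7 liver samples and lines run from the lowest to the highest sample. Among the 29 genes tested the mean lies higher in the gonads except at HOXA6, and the long liver line at HOXC6 comes from fetus 5 at 71.6 CPM.

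Mesenchymal genes and WNT genes lay largely on the gonad side. Of 20 genes of mesenchyme and fibrillar collagens, 16 were higher in the gonad libraries and 1 in the liver, with a median of 2.78. PDGFRA, a growth factor receptor of mesenchyme, ranged from 107 to 234 CPM (median 188) against 0.792 to 11.3 CPM (median 2.52), a log2 difference of 5.59 (SE 0.498, edgeR adjusted p = 3.26e-08). COL1A2, a chain of type I collagen, ranged from 528 to 955 CPM (median 738) against 17.3 to 74.5 CPM (median 22.3), a log2 difference of 4.37 (SE 0.375, edgeR adjusted p = 2.06e-08). NR2F1, a nuclear receptor, ranged from 447 to 993 CPM (median 481) against 17.4 to 37.3 CPM (median 28.5), a log2 difference of 4.28 (SE 0.228, edgeR adjusted p = 5.28e-11). The collagen and receptor levels did not overlap between the groups. TBX18, of ureteral mesenchyme, varied widely among the gonad samples, from 4.29 to 73.4 CPM, and stayed above the liver samples (at most 0.963 CPM). PDGFRB, of pericytes, was higher in the liver (log2 difference -0.58, SE 0.111, edgeR adjusted p = 0.000204) and higher in the gonads with plain library totals (0.47). DCN, decorin, was not called (0.56, edgeR adjusted p = 0.076). It was called higher in the gonads with fetus as a block (0.65, edgeR adjusted p = 0.0464) and without liver fetus 4 (0.82). Other alternatives that called it higher there included limma-voom (0.65), ET_D9 alone (1.15) and plain library totals (1.69). So did leaving out the mitochondrial genes (0.61) or the jump genes (0.58).

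Of 25 WNT pathway genes tested, 16 were higher in the gonad libraries and 2 in the liver, with a median of 2.05. Among ligands, WNT5A ranged from 33.3 to 58.1 CPM (median 47.5) against 4.32 to 12.2 CPM (median 6.78), while WNT2 was higher in the liver, at 8.13 to 15.9 CPM against 1.93 to 3.04 CPM. Among inhibitors, SFRP1, which binds WNT proteins, ranged from 123 to 241 CPM (median 175) against 2.09 to 30.9 CPM (median 7.68). RSPO3, which amplifies WNT signals, ranged from 92.7 to 152 CPM against 15.1 to 54.1 CPM. The receptor FZD5 went the other way, at 55.1 to 88.9 CPM in the liver (median 73) and 3.43 to 6.64 CPM in the gonads (median 5.07), a log2 difference of -3.84 (SE 0.175, edgeR adjusted p = 7.85e-12). AXIN2, a target gene that feeds back on the pathway, was higher in the gonads by 2.88 (SE 0.235, edgeR adjusted p = 1.11e-08).

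Of 13 genes of endothelium in general, 9 were higher in the gonad libraries and 4 in the liver, with a median of 0.81, whereas all 7 genes of liver sinusoidal endothelium tested were higher in the liver, with a median of -3.59. EMCN, a sialomucin of venous and capillary endothelium, ranged from 47.1 to 71.8 CPM (median 58) in the gonads against 5.33 to 7.46 CPM (median 6.14). STAB2, the hyaluronan receptor of sinusoids, ranged from 6.11 to 10.2 CPM (median 7.88) against 73.8 to 106 CPM in the liver (median 86.7). PLVAP, of fenestrated endothelium, was higher in the liver (log2 difference -2.12, SE 0.17, edgeR adjusted p = 9.35e-09). LHX2, of hepatic stellate cells, was at most 0.184 CPM in the gonads and 36.5 to 126 CPM in the liver (median 48.3).

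**Figure D4:**
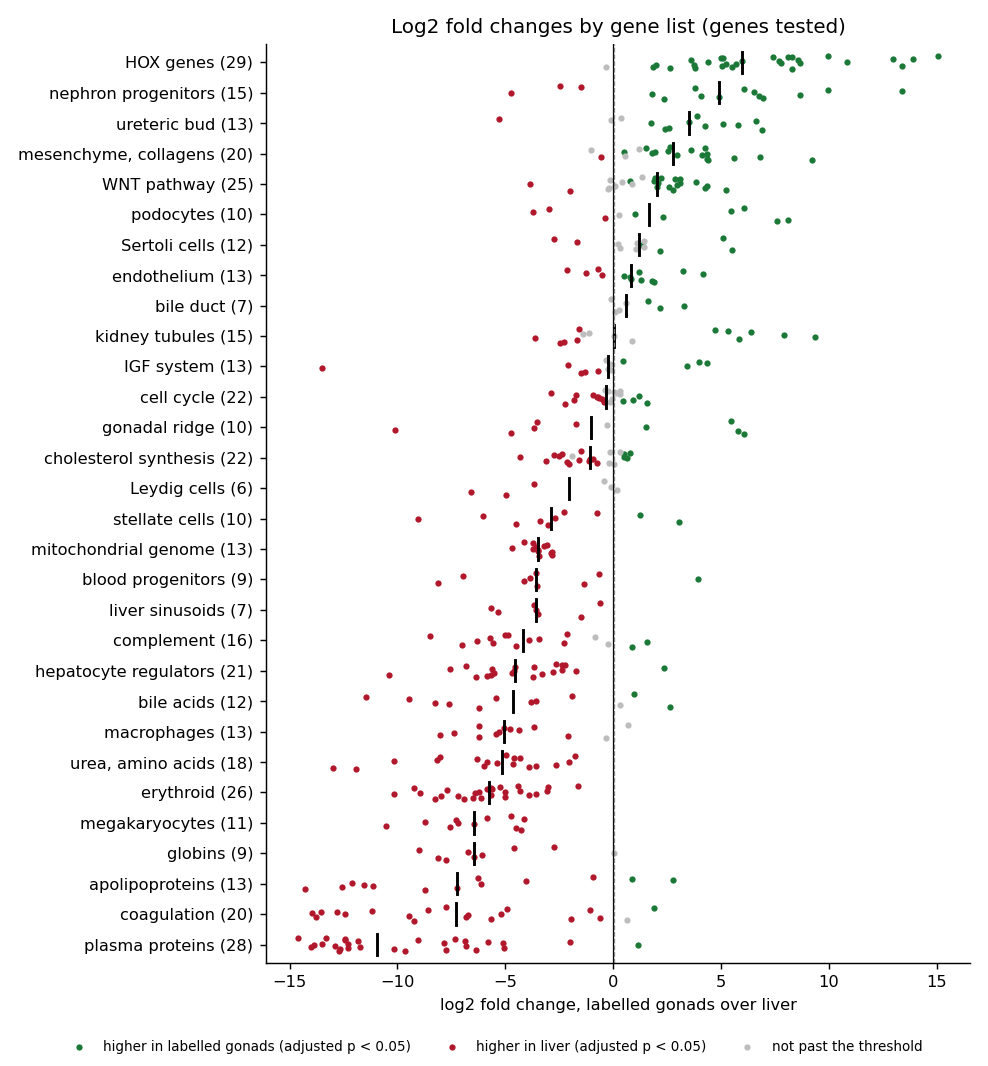
Log2 differences, gonad over liver, of the genes in each list. Each point is a gene, each black bar the median of its list, the dashed line the median of all genes tested (0.04), and the number in brackets how many genes of the list were tested. The lists of HOX, nephron progenitor and ureteric bud genes lie to the gonad side and those of plasma proteins, erythroid cells and megakaryocytes to the liver side.

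Transcription factors of hepatocytes were higher in the liver for 20 of 21 members, with a median of -4.56. HNF4A, a nuclear receptor that directs hepatocyte identity, ranged from 70.9 to 114 CPM (median 85.2) in the liver and from 0.646 to 1.75 CPM (median 1.16) in the gonads, a log2 difference of -6.38 (SE 0.252, edgeR adjusted p = 1.33e-12). FOXA2, which opens chromatin in endoderm, ranged from 37.7 to 54.1 CPM (median 48.7) and reached at most 0.176 CPM in the gonads, in fetus 5. Its log2 difference of -10.41 was -12.16 without that sample. ONECUT2, another factor of hepatoblasts, had a log2 difference of -5.62 (SE 0.21). CEBPA, low in both organs, was at 1.51 to 5.62 CPM in the liver and 0.0176 to 0.617 CPM in the gonads. TBX3 was the member higher in the gonads, at 43 to 71.3 CPM (median 54.2) against 5.11 to 22.3 CPM (median 10.2), a log2 difference of 2.37 (SE 0.258, edgeR adjusted p = 3.75e-07).

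Genes of plasma proteins also lay on the liver side. Of 28 plasma proteins tested, 27 were higher in the liver, with a median of -10.94 and a summed level of 50140 to 85581 CPM against 93.1 to 127 CPM in the gonads. Of the 30 listed, 15 averaged 1 CPM or less in the gonads, and such genes could pass the filter through the liver alone. ALB, serum albumin, ranged from 1057 to 2679 CPM (median 1822) against 1.52 to 3.62 CPM (median 2.12), a log2 difference of -9.63 (SE 0.288, edgeR adjusted p = 7.03e-14). The member higher in the gonads was CP, the copper carrier ceruloplasmin, at 1.46 to 2.47 CPM against 0.227 to 1.3 CPM (log2 difference 1.14, SE 0.332, edgeR adjusted p = 0.00573). Apolipoproteins were higher in the liver for 11 of 13, with a median of -7.23. APOB, the scaffold of very low density lipoprotein, ranged from 1323 to 2467 CPM (median 2104) against 0.154 to 0.476 CPM (median 0.322), a log2 difference of -12.57 (SE 0.262, edgeR adjusted p = 2.18e-15). APOE, made by many tissues, had a higher base in the gonads, at 21.8 to 47.6 CPM (median 30.2) against 828 to 3126 CPM in the liver (median 2461), a log2 difference of -6.12 (SE 0.285, edgeR adjusted p = 1.02e-11). APOD and APOO were the 2 members higher in the gonads.

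Coagulation genes were higher in the liver for 18 of 20 and complement genes for 12 of 16, with medians of -7.30 and -4.20. FGB, the beta chain of fibrinogen, ranged from 3151 to 4931 CPM (median 4333) against 0.423 to 0.884 CPM (median 0.567), a log2 difference of -12.79 (SE 0.243, edgeR adjusted p = 6.72e-16). F2, prothrombin, ranged from 791 to 2192 CPM (median 1411) against 1.31 to 3.72 CPM (median 2.38). TFPI, the inhibitor that endothelium holds against the start of clotting, was higher in the gonads, at 9.55 to 18.7 CPM against 2.68 to 4.82 CPM (log2 difference 1.90, SE 0.189, edgeR adjusted p = 1.31e-07). F3, tissue factor, which starts clotting, was not called (0.66, SE 0.355, edgeR adjusted p = 0.102), but was called higher in the gonads without liver fetus 8 (0.98). C3, the central complement protein, ranged from 711 to 2524 CPM in the liver (median 1344) and from 8.78 to 15.5 CPM in the gonads (median 10.1).

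All 18 genes of the urea cycle and amino acid breakdown that were tested were higher in the liver, with a median of -5.17. CPS1, the entry enzyme of the urea cycle, ranged from 186 to 292 CPM (median 223) against 0 to 0.115 CPM (median 0.0639), a log2 difference of -11.93 (SE 0.38, edgeR adjusted p = 1.19e-13). HPD, of tyrosine breakdown, ranged from 349 to 614 CPM (median 442) against 0.25 to 0.563 CPM (median 0.385), a log2 difference of -10.18 (SE 0.221, edgeR adjusted p = 2.95e-15). Bile acid genes were higher in the liver for 9 of 12 and higher in the gonads for 2. AKR1D1, a reductase of bile acid synthesis, ranged from 33.5 to 84.1 CPM (median 49.6) and reached at most 0.0431 CPM in the gonads, whereas CYP27A1, which hydroxylates the side chain of cholesterol, was higher in the gonads, at 25.7 to 45.6 CPM (median 28.6) against 3.14 to 7.42 CPM (median 4.94). Cholesterol synthesis was less one-sided. Of 22 genes, 13 were higher in the liver, 4 in the gonads and 5 were not called, with a median of -1.08. FDPS, which makes farnesyl diphosphate, was higher in the liver by a difference of -3.10 (SE 0.171, edgeR adjusted p = 8.12e-11), and HMGCS1, an early enzyme of the path, by -2.03 (SE 0.104, edgeR adjusted p = 3.29e-11). Plain library totals raised the members higher in the gonads from 4 to 8.

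Blood-forming cells were on the liver side. All 26 erythroid genes tested were higher in the liver, each without overlap, beside 35.9% and 21.6% of all genes tested. The erythroid list had a median of -5.76 and a summed level of 14301 to 20678 CPM against 276 to 447 CPM in the gonads. KLF1, an erythroid transcription factor, ranged from 563 to 1279 CPM (median 846) against 0.402 to 1.68 CPM (median 0.728), a log2 difference of -10.15 (SE 0.35, edgeR adjusted p = 2.81e-13). GATA1, which directs red cell and platelet lineages, ranged from 393 to 511 CPM (median 477) against 0.517 to 1.61 CPM (median 0.888), a log2 difference of -8.95 (SE 0.274, edgeR adjusted p = 8.92e-14). AHSP, the chaperone of alpha globin, ranged from 959 to 2234 CPM (median 1486) against 3.21 to 7.9 CPM (median 4.94). ALAS2, the first enzyme of haem synthesis in red cells, had a log2 difference of -6.91 (SE 0.258, edgeR adjusted p = 7.26e-13), and FECH, the last enzyme of that path in all cells, one of -1.62 (SE 0.173, edgeR adjusted p = 2.9e-07).

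Of 9 globin genes tested, 8 were higher in the liver and 1 was not called, with a median of -6.45. HBG, a beta-type globin of the fetus, ranged from 4302 to 15800 CPM (median 9725) against 64.6 to 237 CPM (median 134), a log2 difference of -6.10 (SE 0.371, edgeR adjusted p = 2.81e-10). HBM, an alpha-type globin, ranged from 647 to 1243 CPM (median 1006) against 0.84 to 2.77 CPM (median 1.82), a log2 difference of -9.01 (SE 0.331, edgeR adjusted p = 5.88e-13). Both separated the organs in every sample. Every liver sample lay above every gonad sample for 7 of the 9 genes, among them HBE4, an epsilon-type globin (log2 difference -6.73). The embryonic globins HBZ and HBE1, of primitive red cells, did not separate the organs. HBZ, zeta globin, ranged from 101 to 2020 CPM (median 585) in the liver and from 82 to 216 CPM (median 127) in the gonads, a log2 difference of -2.72 (SE 0.515, edgeR adjusted p = 0.000165) with overlap. HBE1, epsilon globin, was not called, with 32.8 to 1095 CPM (median 316) in the liver and 191 to 799 CPM (median 336) in the gonads (log2 difference 0.03, SE 0.579, edgeR adjusted p = 0.967). Globin genes are near-identical copies of each other in part, and how reads that map to several copies were counted is not given in the sources used here, so the division among them is uncertain.

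The HBE1 difference between the organs changed with the transfer group. In ET_D7 the liver was at 316 CPM in the averaged sample of fetuses 1 and 2, 795 in fetus 3, 480 in fetus 4 and 1095 in fetus 5, above the gonads at 191 to 356 CPM in all but the first. In ET_D9 the liver was at 32.8 CPM in fetus 8, 88.4 in fetus 9 and 145 in fetus 10, below all gonad samples at 317 to 799 CPM. The log2 difference was -1.42 in ET_D7 and 2.73 in ET_D9, and the test of the change itself gave 4.20 (SE 0.684, edgeR adjusted p = 0.00182). For HBZ the differences were -3.54 and -0.70, a change of 2.89 (SE 0.649, edgeR adjusted p = 0.0179).

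**Figure D5:**
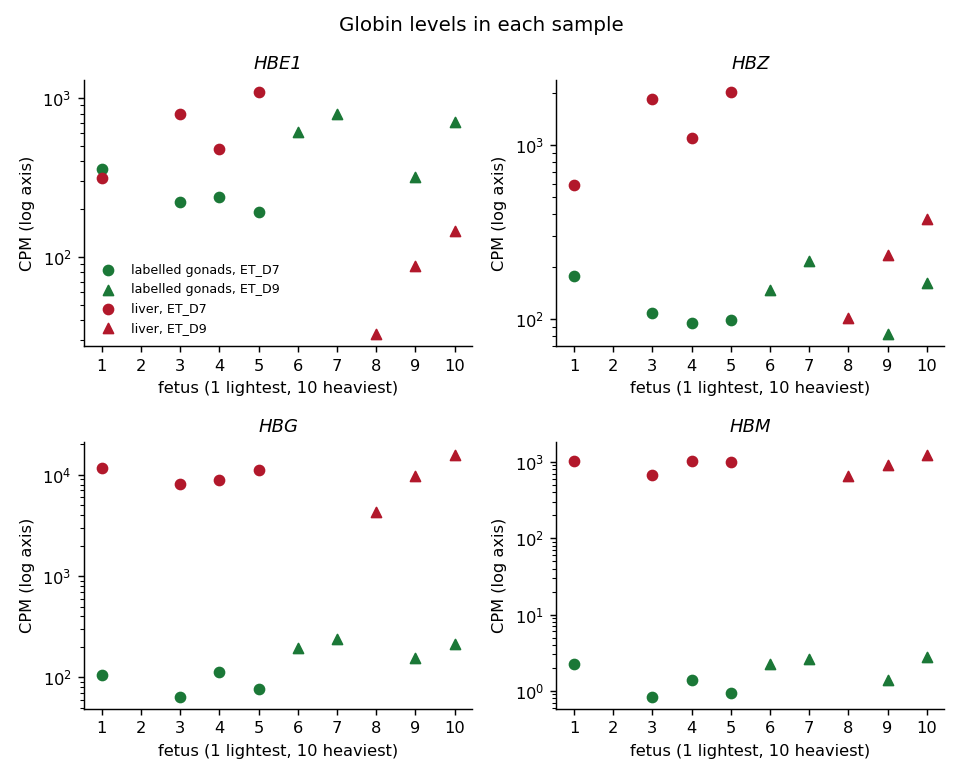
Levels of 4 globin genes in each sample against the fetus number, which follows fetal weight, in CPM on a log axis. Circles are ET_D7 and triangles ET_D9, and an averaged pair of libraries is drawn at its lower fetus number (1 for liver, 6 for gonads). HBE1 and HBZ are high in the livers of ET_D7 and low in those of ET_D9, while HBG and HBM separate the organs throughout.

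Among other blood cells, all 11 megakaryocyte genes tested were higher in the liver, with a median of -6.43, as were 11 of 13 macrophage genes, with a median of -5.06, and 8 of 9 genes of blood progenitors, with a median of -3.58. PF4, a platelet chemokine, ranged from 71.1 to 275 CPM (median 167) against 0.81 to 1.77 CPM (median 1.17). CD163, the scavenger receptor for haemoglobin on macrophages, ranged from 17.7 to 49.2 CPM (median 39.8) against 0.192 to 0.689 CPM (median 0.501). CD68, a lysosomal protein of macrophages and other cells, was not called (log2 difference -0.34, SE 0.165, edgeR adjusted p = 0.0739). It was called higher in the liver in the 7 fetuses that gave both organs, with fetus as a block (-0.44) and without it (-0.43), without gonad fetus 1 (-0.42) or 7 (-0.41) and with DESeq2 (-0.40), and higher in the gonads with plain library totals (0.70). CD34, of blood progenitors and vessels, ranged from 301 to 560 CPM in the liver (median 393) against 31.1 to 49.8 CPM (median 32). MECOM, the progenitor gene on the other side, ranged from 19.8 to 192 CPM in the gonads (median 139) against 4.06 to 17.2 CPM (median 7.83), a log2 difference of 3.94 (SE 0.425, edgeR adjusted p = 3.41e-07). The lowest gonad value was that of fetus 1.

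Counts were spread over more genes in the gonad libraries. The 10 most counted genes took 5.68% ± 0.995 (SD, n = 8) of the counts there and 29.3% ± 7.69 (SD, n = 7) in the liver (two-sided exact permutation test p = 0.0001554, the smallest that 6435 arrangements can give). Without the mitochondrial genome these shares were 3.90% and 12.4%. The number of genes that held the upper 50% of counts averaged 1157 in the gonads and 113 in the liver. COX1, a subunit of mitochondrial complex IV, was first in both organs. It took 0.932% ± 0.283 (SD, n = 8) of gonad counts and 10.8% ± 3.70 (SD, n = 7) of liver counts. All 13 protein genes of the mitochondrial genome were higher in the liver, with a median log2 difference of -3.48. The heart samples, also rich in mitochondrial counts and scaled separately, averaged 201447 CPM of COX1 beside 169703 in the liver and 6619 in the gonads. RN18S1, a ribosomal RNA that selection of poly(A) RNA should largely remove, was also higher in the liver (log2 difference -3.96, SE 0.33, edgeR adjusted p = 1.43e-08). With the mitochondrial genes left out, 6522 genes were called higher in the gonads and 6250 in the liver. The part of RN18S1 in the other differences was not tested.

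H19, an imprinted non-coding RNA, was among the 10 most counted in both organs, at 2638 to 5122 CPM (median 3377) in the gonads and 8566 to 21479 CPM (median 12244) in the liver, a log2 difference of -1.81 (SE 0.228, edgeR adjusted p = 2.06e-06). Its imprinted neighbour IGF2, a growth factor of the fetus, ranged from 1475 to 2888 CPM (median 1635) against 3507 to 6819 CPM (median 4065), a log2 difference of -1.30 (SE 0.185, edgeR adjusted p = 8.21e-06), not called with plain library totals (-0.23). PEG10, a retrotransposon-derived imprinted gene, was at 1598 to 4010 CPM against 4095 to 5657 CPM, higher in the liver (-0.80, SE 0.167, edgeR adjusted p = 0.000417) but of the other sign with plain library totals (0.25). EEF1A1, a translation elongation factor, was higher in the gonads by 1.90 (SE 0.211, edgeR adjusted p = 4.5e-07), and HSP90AB1, a chaperone, by 0.88 (SE 0.13, edgeR adjusted p = 1.22e-05). The ribosomal protein RPL4 was higher in the liver (-1.40, SE 0.19, edgeR adjusted p = 5.19e-06), but was not called with plain library totals (-0.31). RPS3A was also higher in the liver (-0.49, SE 0.165, edgeR adjusted p = 0.0148). It was not called in ET_D9 alone (-0.31) or with a filter of at least 1 count (-0.43), and was higher in the gonads with plain library totals (0.56).

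Members of the insulin-like growth factor system lay on both sides, as did all genes tested (36.9% higher in the gonad libraries and 35.9% in the liver). Of 13 members, 4 were higher in the gonad libraries, 5 in the liver and 4 were not called. IGFBP1, the binding protein secreted by hepatocytes, ranged from 243 to 352 CPM in the liver (median 297) and reached at most 0.09 CPM in the gonads, in fetus 9. Its log2 difference of -13.50 was -14.15 without that sample. IGFBP5, a binding protein of mesenchyme and matrix, ranged from 358 to 703 CPM (median 403) in the gonads against 9.79 to 35.7 CPM (median 22.3), a log2 difference of 4.35 (SE 0.276, edgeR adjusted p = 4.66e-10). IGFBP2 was also higher in the gonads, at 67.4 to 113 CPM (median 78.8) against 5.31 to 11.9 CPM (median 7.61).

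Several enzymes differed by isoform. ALDOA, the widespread form of aldolase, was slightly higher in the gonads (0.36, SE 0.131, edgeR adjusted p = 0.0201), a call that was lost without liver fetus 4 or 9 (0.32 and 0.31). PKLR, the pyruvate kinase of liver and red cells, ranged from 534 to 748 CPM (median 705) in the liver against 3.8 to 11.1 CPM (median 6.35), while PKM, the form of most other tissues, ranged from 359 to 596 CPM (median 399) in the gonads against 90.9 to 279 CPM (median 106). MAT1A, the methionine adenosyltransferase of adult liver, was higher in the liver (-4.96, SE 0.189) and MAT2A, that of other tissues, in the gonads (2.02, SE 0.142). Of the glucose transporters, SLC2A2, of hepatocytes, ranged from 30.6 to 56.6 CPM in the liver against at most 0.192 CPM, and SLC2A1, which red cells also carry, from 419 to 705 CPM against 71 to 84.3 CPM. SLC2A3, of high affinity, was higher in the gonads, at 88.7 to 141 CPM against 15.7 to 59.7 CPM. LDHA was at 34.9 to 56.6 CPM and 26.1 to 75.2 CPM and was not called (0.00, SE 0.215), but was higher in the gonads with plain library totals (1.06), whereas LDHB was higher in the gonads (2.12, SE 0.122, edgeR adjusted p = 1.47e-10).

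Cell cycle genes had no common side. Of 22, 4 were higher in the gonads, 10 in the liver and 8 were not called, with a median of -0.31. The 4 fell to 2 when gonad fetus 5 or 10, or liver fetus 3, 4, 8 or 9, was left out, and with plain library totals they were 17. MKI67, a protein of dividing cells, ranged from 677 to 912 CPM (median 825) in the liver and from 128 to 244 CPM (median 163) in the gonads, a log2 difference of -2.22 (SE 0.145, edgeR adjusted p = 7.01e-10). TOP2A, the topoisomerase of dividing cells, went the other way, at 30.8 to 396 CPM (median 259) against 61.8 to 103 CPM (median 79.5), a log2 difference of 1.58 (SE 0.368, edgeR adjusted p = 0.00109). Gonad fetus 1 was the low sample, below the liver range, and the other gonad samples were above it. CDK1, the mitotic kinase, was not called (-0.06, SE 0.15, edgeR adjusted p = 0.713), but was with plain library totals (0.98). Among 13 genes often used as references, all were called, 5 higher in the gonads and 8 in the liver. GAPDH, a glycolytic enzyme, was at 346 to 570 CPM in the gonads against 827 to 985 CPM in the liver (log2 difference -1.11, not called with plain library totals, -0.06), and TBP, a general transcription factor, at 14 to 20.5 CPM against 5.29 to 13.2 CPM (0.91). ACTB, with overlap, was higher in the liver by -0.50 (SE 0.147, edgeR adjusted p = 0.00589) and higher in the gonads with plain library totals (0.54).

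Genes with large differences lay in part next to each other. In the gene order of RefSeq's annotation of the ARS-UCD2.0 assembly, which is not the build the counts were made on and was used here for names and order alone, 4 runs of at least 3 neighbouring protein-coding genes were all at least 32-fold higher in the gonads, and 18 runs were so in the liver, with 16 and 61 genes. On the gonad side 3 runs were HOX genes: HOXD1, HOXD3, HOXD4, HOXD8, HOXD9, HOXD10 and HOXD11 on chromosome 2, HOXB6, HOXB5 and HOXB4 on chromosome 19, and HOXC8, HOXC9 and HOXC10 on chromosome 5. The other, also on chromosome 5, held TSPAN19, LRRIQ1 and the homeobox gene ALX1, which ranged from 9.07 to 13 CPM against at most 1.01 CPM in liver fetus 10 (log2 difference 6.13, or 8.19 without that sample). On the liver side the runs included the fibrinogen genes FGG, FGA and FGB on chromosome 17, the albumin family of ALB, AFP and AFM on chromosome 6, and ITIH4, ITIH3 and ITIH1 on chromosome 22. KNG1, HRG, FETUB and AHSG on chromosome 1 encode plasma proteins with cystatin domains. KNG1, kininogen, ranged from 499 to 699 CPM (median 593) against at most 0.44 CPM, and AHSG, fetuin A, from 3488 to 6205 CPM (median 5674) against 0 to 5.85 CPM (median 0.769). The log2 differences were -12.43, or -13.27 without the averaged gonad sample of fetuses 6 and 8, and -11.73, or -12.49 without gonad fetus 4.

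Other liver runs were of defence and metal-binding genes. They held the cathelicidins CATHL1, CATHL3 and CATHL2 on chromosome 22, the calgranulins S100A8, S100A12 and S100A9 on chromosome 3, and the metallothioneins MT1A and MT2A with 2 unnamed genes on chromosome 18. CATHL2, an antimicrobial peptide of granulocytes, ranged from 12.7 to 17.9 CPM (median 16.2) in the liver and reached at most 0.0861 CPM in the gonads. S100A12 ranged from 63.3 to 146 CPM (median 83.5) against 0.288 to 0.675 CPM (median 0.524). MT2A, which binds zinc and copper, ranged from 324 to 700 CPM (median 478) against 0.225 to 1.44 CPM (median 0.695), a log2 difference of -9.55 (SE 0.354, edgeR adjusted p = 6.65e-13). The metallothioneins and the SERPINA3 family on chromosome 21 are near-identical copies, and the division of reads among them is uncertain.

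The difference between the organs itself changed between ET_D7 and ET_D9 for 779 of 17679 genes (4.41%) in the interaction test of edgeR. Of these, 368 had an SD of log2 CPM over 2 among the liver samples, and 411 did not. The 368 included 99 of the genes that jumped between at most 2 and at least 300 counts there. Of all 333 genes with such a jump, 323 were at the low value in each of the 3 liver libraries of ET_D9. The low value also occurred within ET_D7, for 284 of these genes in each of liver fetuses 1 and 2, 146 in fetus 3, 157 in fetus 4 and 93 in fetus 5. For such genes a change between the transfer groups cannot be told apart from the jumps. The 5 genes with the smallest p were ZNF419, VANGL2, IFNLR1, NOS3 and NHERF4, each with 0 or 1 count in every liver sample of ET_D9. VANGL2, of planar cell polarity, had 305 to 1032 counts in the livers of ET_D7 and 1049 to 1880 in the gonads. NOS3, the nitric oxide synthase of endothelium, had 509 to 1224 counts in the livers of ET_D7 and 166 to 296 in the gonads. Of 178 genes examined by name, 6 (3.37%) passed: AFP, CLDN11, HOXD3, HBE1, HBZ and SLC2A3. HOXD3 had 0 or 1 count in each liver sample of ET_D9, and 0 in liver fetus 4. With 200 counts in liver fetus 3 it missed the jump limits, but its change is open to the same doubt. AFP was lower in the gonads by a difference of -14.34 in ET_D7 and -12.10 in ET_D9, a change of 2.32 (SE 0.6, edgeR adjusted p = 0.0414).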

How the data were processed

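RNA of 9 gonad and 8 liver samples was read from libraries made with a stranded mRNA kit, after samples of poor RNA quality had been left out by the study. The authors deposited whole-number counts per gene with Entrez identifiers. Per the labels and methods, reads were trimmed with Trimmomatic, mapped with STAR 2.7.0b to ARS-UCD1.3 and counted with featureCounts (Subread 2.0.3). FastQC 0.11.9 is also named. Counting options for strand, read pairs and multi-mapping reads are not given in the sources used here. Of 35092 identifiers, 31630 matched a name in RefSeq's gene table.

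Genes that reached 10 counts in no fewer than 8 of the 17 libraries were tested with edgeR 4.0.16 (R 4.3.3), quasi-likelihood test, TMM scaling, Benjamini-Hochberg adjustment. Fetuses are the replicates. Libraries that agreed more closely than sampling noise allows (gonad fetuses 6 and 8, liver fetuses 1 and 2) were averaged after the counts were seen. The fit with all 17 separate is an alternative. The interaction with transfer group was fitted in the same way. The top-10 share was compared by an exact permutation test. Alternatives were DESeq2 1.42.0, limma 3.58.1, other scalings and filters, the fetus as a block and leaving out each sample. The pairing comes from the labels: 7 fetuses gave both organs, although deviations from the organ means of the same fetus correlated by -0.096 to 0.065 only. The main test was checked on simulated data with the same spread in both organs and no jumps. That check therefore does not cover the wider spread and the jumps of the liver counts. The text names the 10 genes of largest difference per direction (called, no overlap, at least 10 CPM, named, no jump in the liver), the 10 most counted per organ, neighbour runs, the 5 smallest interaction p-values and members of 38 gene lists. Members and lists were chosen with earlier results of these data known. Counting intervals and limits cover counting error only and take each count as independent. Low counts were often even, as for GATA4 with 0, 2, 4 or 6 in each gonad sample. If both reads of a pair were counted, the intervals are too narrow and the fold limits too high. This was not tested. No sequences are shown. Some genes are not reported here.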

Additional observations from a re-analysis of the deposited data

Results flagged for a closer look

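A sample stood apart from the rest of its organ in 45 of 262 sets of values that were examined, where chance gives about 1 in 20. Most came from 2 gonad samples. Gonad fetus 7 had the highest share of mitochondrial counts, 7.22% against 3.31% to 4.65% in the other gonad samples, and the 10 most counted genes took 8.01% of its counts against 4.97% to 5.93%. In CPM it was at 11711 for COX1 (others 5167 to 7053), 8611 for CYTB (3489 to 5653), 8197 for COX3 (3175 to 4556), 3419 for ND1 (1326 to 2107) and 2846 for COX2 (1174 to 1776). Ureteric bud genes summed to 495 CPM (324 to 379), with ETV4 at 182 (64.5 to 105) and GATA3 at 51.6 (32.5 to 39.4), and the epithelial keratin KRT19 was at 103 (41.3 to 68.2). The red cell gene ALAS2 was at 23.1 (8.29 to 13.7), CYP27A1 at 45.6 (25.7 to 34), IGFBP2 at 113 (67.4 to 88.1) and GAPDH at 570 (346 to 446).

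Gonad fetus 1, from the lightest fetus, was highest for HOXA11 at 62.8 CPM (others 31.6 to 44.6), HOXD3 at 482 (258 to 323), FOXD1 at 104 (51.5 to 68.7), TCF21 at 191 (88.8 to 112), PAX8 at 122 (74.9 to 96.1) and NR2F1 at 993 (447 to 617). Its growth factor genes IGF2 and IGFBP5 were at 2888 (1475 to 1988) and 703 (358 to 427), the vessel genes CD34 and PLVAP at 49.8 (31.1 to 38.6) and 86.6 (41.5 to 53.6), and PKM at 596 (359 to 433). Macrophage genes summed to 31.1 CPM (24.2 to 27) and Leydig cell genes to 19.7 CPM (9.52 to 11.8). Single gonad values apart were HSP90AB1 at 2768 in fetus 4 (1967 to 2215), PAX2 at 157 in fetus 3 (118 to 136) and SLC12A1 at 71.9 in fetus 9 (14 to 39.6).

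In the liver, fetus 5 had HOXC6 at 71.6 CPM (others 0 to 0.072), which brought its HOX genes to a sum of 117 CPM (41.6 to 70.4), and HMGCS1 at 371 (255 to 285). Fetus 3 had NANOS3 at 77.6 (0 to 0.072), CDH16 at 321 (107 to 197), MEIS1 at 25.7 (13.1 to 18.5), ONECUT2 at 223 (87.8 to 130), S100A12 at 146 (63.3 to 86) and IGF2 at 6819 (3507 to 4650). Fetus 4 had DCN at 121 (36.5 to 57.6), TBX3 at 22.3 (5.11 to 11.7), AKR1D1 at 84.1 (33.5 to 53.5) and LHX2 at 126 (36.5 to 61). The averaged sample of fetuses 1 and 2 had CYP11A1 at 27.7 (18.9 to 22.4). The values of HOXC6 and NANOS3 are jumps of the kind described above for the liver counts.

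The difference between gonad and liver changed between ET_D7 and ET_D9 for 779 genes in edgeR's interaction test, of which 368 varied widely among the livers. The part of fetal weight in this was not tested, since it cannot be told apart from the transfer group.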

How the results depend on the processing

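The numbers of genes called higher in either organ moved by more than 1.5 times with plain library totals and with no other alternative run. With those totals 10531 genes were higher in the gonads and 3293 in the liver, 8959 and 2555 of them by at least 2-fold, and the median of all genes was 1.10. The 1249 genes within 1.5-fold became 730 with those totals, 579 in ET_D7 alone and 614 in ET_D9 alone. The signs of PEG10 (0.25), RPS3A (0.56), PDGFRB (0.47) and ACTB (0.54) reversed with plain library totals. With limma-voom that median was 0.256 and with the fetus as a block 0.218. Leaving out 1 sample at a time gave 6239 to 6508 genes higher in the gonads and 6099 to 6363 higher in the liver, with 4653 to 4771 and 4726 to 4915 at least 2-fold. With fetus as a replicate block, over the 7 fetuses that gave both organs, 6334 and 5501 genes were called (4815 and 4214 by at least 2-fold), against 6347 and 6258 in the same fetuses without the block. Of the genes named, the block changed the calls of SOX9, FSHR, DCN, NANOS3 and ALDOA (not called without it in those fetuses, at 0.28) and no other, while CD68 was called there with and without it. With the near-identical libraries kept apart, 6689 and 6529 genes were called. The interaction count was 1364 with DESeq2, 1138 with near-identical libraries kept apart and 695 without the filter on low counts. Over 178 genes and 31 alternatives, 5442 of 5506 values kept direction and call, 22 lost a call, 33 gained one and 9 reversed. NANOS3, high in liver fetus 3 alone, accounted for 5 of the reversals, at 3.70 with DESeq2, 1.92 with limma-voom, 1.94 with the block, 3.64 in ET_D9 and 4.71 without that liver sample, and its values with 1 sample left out ran from -4.50 to 4.71. Other causes were not tested. The liver samples varied more (genes with an SD over 2 on the log2 scale: 726 against 2 in the gonads), which limits small differences.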

Other observations

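Some genes outside the lists also differed by much, and were chosen here after their values were seen. On the gonad side, COL2A1, the collagen of cartilage, had a median of 711 CPM and a highest value of 1112 CPM against 3.89 to 28.7 CPM in the liver (median 15.1), a log2 difference of 5.48 (SE 0.365, edgeR adjusted p = 8.75e-10). FOXC2, a transcription factor of mesoderm and podocytes, ranged from 29.1 to 39.7 CPM (median 34.3) and reached at most 0.361 CPM in the liver, with a log2 difference of 8.94 (SE 0.582), or 10.54 without liver fetus 9. ITGA8, the integrin of metanephric mesenchyme, ranged from 59.2 to 94.1 CPM (median 77.7) against 0.644 to 4.09 CPM (median 1.87), and CRABP1, which binds retinoic acid, from 201 to 315 CPM (median 234) against 2.61 to 11 CPM (median 5.91). No liver sample overlapped the gonads in any of these.

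On the liver side, genes of iron handling were higher. HAMP, the iron hormone hepcidin, ranged from 101 to 241 CPM (median 182) and reached at most 0.0675 CPM in the gonads, a log2 difference of -12.95 (SE 0.44, edgeR adjusted p = 2.32e-13). FTH1 and FTL, the chains of ferritin, had log2 differences of -3.63 (SE 0.204) and -3.57 (SE 0.189). SOX6, which acts in red cell maturation, ranged from 1404 to 4550 CPM (median 2153) against 18.4 to 27.6 CPM (median 19.7). The imprinted genes MEG3 and PEG3 were higher in the liver, with log2 differences of -1.51 (SE 0.174) and -1.97 (SE 0.136).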
